A study of Mus musculus with 6 samples.

Results

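The extracellular matrix genes described here are 36 genes that encode collagens, proteoglycans and other matrix proteins, the enzymes that fold and crosslink collagen, and the metalloproteinases that cut matrix with their inhibitors. They were picked by symbol, and all 36 were found among the 33456 genes of the files. They were measured by single-cell RNA sequencing in epididymal visceral fat of mice, in cells sorted by flow cytometry as positive for CD45, which leukocytes carry, and for the myeloid integrin CD11b. There were 3 samples of a control diet (Control) and 3 of the group labelled HFD, in a study of long-term obesity. The labels give no strain, age or duration of the diet, and do not say whether a sample is 1 animal or a pool, so a p-value here reflects only how far these samples spread, and that spread may be technical. Transcripts were counted as unique molecular identifiers (UMIs), each standing for 1 captured molecule. A level is given as CPM, UMIs of a gene per 1000000 UMIs of the cells summed. It is not divided by gene length, so levels are compared between samples and cell classes of 1 gene and not between genes.

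Fibrillar collagens are made as long procollagens, folded with the help of chaperones in the endoplasmic reticulum, secreted, trimmed and assembled into fibrils that lysyl oxidases crosslink. Small leucine-rich proteoglycans sit on these fibrils, basement membranes are built on a network of type IV collagen, and metalloproteinases remodel both under the control of the TIMP inhibitors. In fat, fibroblasts and adipocyte progenitors are the known main makers of this matrix, and expanding obese fat is known for fibrosis around adipocytes. Macrophages make few collagens but secrete fibronectin, TGFBI, some metalloproteinases and TIMPs.

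The 250 bases before the annotated start of 5 of these genes are shown from RefSeq (build GRCm38.p6), because these genes stand for the patterns described below. Col1a2 and Col3a1 encode the collagens that marked the fibroblast-like cells, Mmp3 had no UMI in fibroblast-like cells of Control, and Timp2 and Tgfbi were found mostly in cells with high C1q, a macrophage complement factor. The windows are chr6:4505368-4505617, plus strand for Col1a2, chr1:45311288-45311537, plus strand for Col3a1, chr9:7445572-7445821, plus strand for Mmp3, chr11:118355412-118355661, minus strand for Timp2 and chr13:56609336-56609585, plus strand for Tgfbi. All are promoter sequence 5′ to 3′ on the strand of the gene, and capitals mark matches to the 4 motifs searched. The deposited matrices carry no coordinates, and the processing notes name the older build mm9.
Col1a2: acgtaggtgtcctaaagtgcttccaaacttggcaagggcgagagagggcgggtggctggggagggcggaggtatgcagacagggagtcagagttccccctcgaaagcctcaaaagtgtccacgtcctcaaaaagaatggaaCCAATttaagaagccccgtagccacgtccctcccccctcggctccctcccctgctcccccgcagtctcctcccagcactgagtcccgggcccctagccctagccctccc
Col3a1: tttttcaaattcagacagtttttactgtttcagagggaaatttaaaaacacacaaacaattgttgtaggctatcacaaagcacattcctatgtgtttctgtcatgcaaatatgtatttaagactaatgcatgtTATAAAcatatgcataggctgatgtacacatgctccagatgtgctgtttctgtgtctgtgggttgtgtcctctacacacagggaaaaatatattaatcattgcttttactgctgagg
Mmp3: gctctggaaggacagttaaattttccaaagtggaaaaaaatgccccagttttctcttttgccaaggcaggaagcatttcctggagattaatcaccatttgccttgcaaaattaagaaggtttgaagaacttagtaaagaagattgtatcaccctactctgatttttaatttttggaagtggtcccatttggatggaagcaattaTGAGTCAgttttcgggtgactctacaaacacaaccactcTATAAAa
Timp2: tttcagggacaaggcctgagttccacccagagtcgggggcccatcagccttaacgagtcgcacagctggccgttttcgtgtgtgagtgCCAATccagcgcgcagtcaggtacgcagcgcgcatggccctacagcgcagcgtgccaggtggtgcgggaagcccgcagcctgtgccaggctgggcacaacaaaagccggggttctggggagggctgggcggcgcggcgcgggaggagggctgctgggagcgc
Tgfbi: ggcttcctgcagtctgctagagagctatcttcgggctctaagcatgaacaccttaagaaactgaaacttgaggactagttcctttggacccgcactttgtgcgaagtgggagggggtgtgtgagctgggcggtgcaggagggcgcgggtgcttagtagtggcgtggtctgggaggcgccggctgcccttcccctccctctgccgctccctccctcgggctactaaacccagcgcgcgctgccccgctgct
The motifs were CCAAT (the CCAAT box), TATAAA (the TATA box), GAGGAA (a core that binds ETS factors such as PU.1 of myeloid cells) and TGANTCA (the site of AP-1), read on both strands, and no matches overlapped in the windows of these genes. Of the 36 genes, 24 had a promoter entry. A CCAAT box stood in 6 of the 24 (Col1a2, Col4a1, Col4a2, Mmp14, Timp1 and Timp2) and in 33.8% of all 32851 promoter windows of this length. The TATA box stood in Col3a1, Mmp3 and Postn (12.4% of all windows), GAGGAA in 6 (Aebp1, Bgn, Col5a1, Col6a1, Col6a2 and Col6a3; 23.3%) and the AP-1 site in Col6a1 and Mmp3 (6.75%). The window of Tgfbi held none of the 4. A match is a stretch of letters and shows no binding.

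The samples share cell barcodes. Of 2195 distinct barcodes, 1082 stood in more than 1 sample, so that the files hold 5511 entries, an entry being 1 barcode in 1 sample, and 5402 passed the cell filters. A barcode was therefore kept in a single sample, that of its highest UMI total, which left 986 Control and 1128 HFD cells. Kept UMIs per sample came to 1997647 to 3874349 in Control and 3587086 to 5708323 in HFD. Several results depend on this choice, and values that count every deposited entry are given beside them.

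Cells were divided by their counts into 4 classes. Fibroblast-like cells had at least 6 UMIs of Col3a1 and Col1a2 together, C1q-high cells had at least 20 UMIs per 10000 of the macrophage complement genes C1qa, C1qb and C1qc, lymphoid cells had at least 3 UMIs over 9 T, B and natural killer cell genes, and the rest were called other. These are ranges, not clusters. Just outside the collagen limit, 15 cells had 4 or 5 of these UMIs, and just inside it 14 had 6 or 7, while the median fibroblast-like cell had 26. The limit on C1q had 130 cells between 15 and 25 UMIs per 10000. There were 8, 2 and 9 fibroblast-like cells in Control 1, 2 and 3 and 75, 52 and 68 in HFD 1, 2 and 3. C1q-high cells numbered 616 in Control and 782 in HFD with median depths of 7085 and 12051.5 UMIs, and lymphoid cells 45 and 30.

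The class names were checked against markers that are none of the 36 genes. All 20 fibroblast reporter genes, chosen from genes known in fibroblasts, had UMIs in the fibroblast-like cells and summed there to 9281 to 12690 CPM in Control and 11260 to 11460 CPM in HFD. Pdgfra, the growth factor receptor of fibroblasts and fat progenitors, was found in 81.3% of 214 fibroblast-like and in 1.79% of 1398 C1q-high cells, at median depths of 7148 and 9609 UMIs. The 10 macrophage genes summed to 1101 to 2566 CPM in fibroblast-like and 12370 to 16150 CPM in C1q-high cells. Wt1, a transcription factor of mesothelium and of visceral fat progenitors, was found in 53.7% of fibroblast-like cells, but the other 4 mesothelial genes (Msln, Upk3b, Krt19 and Lrrn4) in 0.935% to 1.40%. The adipocyte genes Adipoq, Plin1, Lep and Retn had no UMI in fibroblast-like cells, which allows up to 1.90 CPM (3 counts, counting error only). Of the 6 endothelial genes 5 had UMIs there, all but Cdh5, and the list summed to 620.5 to 791.9 CPM in Control and 257 to 572 CPM in HFD. Most of this sum was Fabp4, a fatty acid binding protein gene that macrophages and adipocytes also express, at 733.5 and 351 CPM in the pooled cells of the 2 diets, while Kdr, Cldn5 and Egfl7 stood at 0 in Control and at 0.711 to 1.42 CPM in HFD. Ptprc and Itgam encode CD45 and CD11b, the antigens of the sort. Ptprc had a UMI in 13.1% of fibroblast-like and 71.5% of C1q-high cells, and Itgam in 7.48% and 58.7%, so most fibroblast-like cells showed no message of the antigens they were sorted for.

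The share of fibroblast-like cells was 2.06%, 0.769% and 2.66% of cells in Control 1, 2 and 3 and 16.6%, 17.6% and 17.9% in HFD 1, 2 and 3. The groups did not overlap. Means were 1.83% ± 0.968 and 17.4% ± 0.708 (SD, n = 3 each), and the two-sided exact permutation test gave p = 0.1, the smallest that 3 against 3 samples allow. Because the cells were drawn by Col3a1 and Col1a2, this share describes collagen UMIs as much as cells. Counting every deposited entry, the means were 1.91% and 9.11%. In that form 43 of 62 Control fibroblast-like entries had more UMIs under the same barcode in another sample, against 5 of 200 in HFD.

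Most matrix genes were messages of the fibroblast-like cells. These cells held a median of 88.8% of a gene's UMIs in HFD and 75.7% in Control, over the 36 genes. In HFD they held more than 50% for 32 genes, from 72.0% for Mmp14 to 94.6% for Col3a1, although they were 17.4% of cells. In Control they held more than 50% for 29 genes, although they were 1.83% of cells. The split is a description with no test, because Col3a1 and Col1a2 defined the class. The exceptions in HFD were Tgfbi (5.24% in fibroblast-like cells), Mmp9 (0.897%), Timp2 (26.1%) and Fn1 (46.6%). C1q-high cells held 84.3%, 91.9%, 71.1% and 47.3% of these 4.

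**Figure D1:**
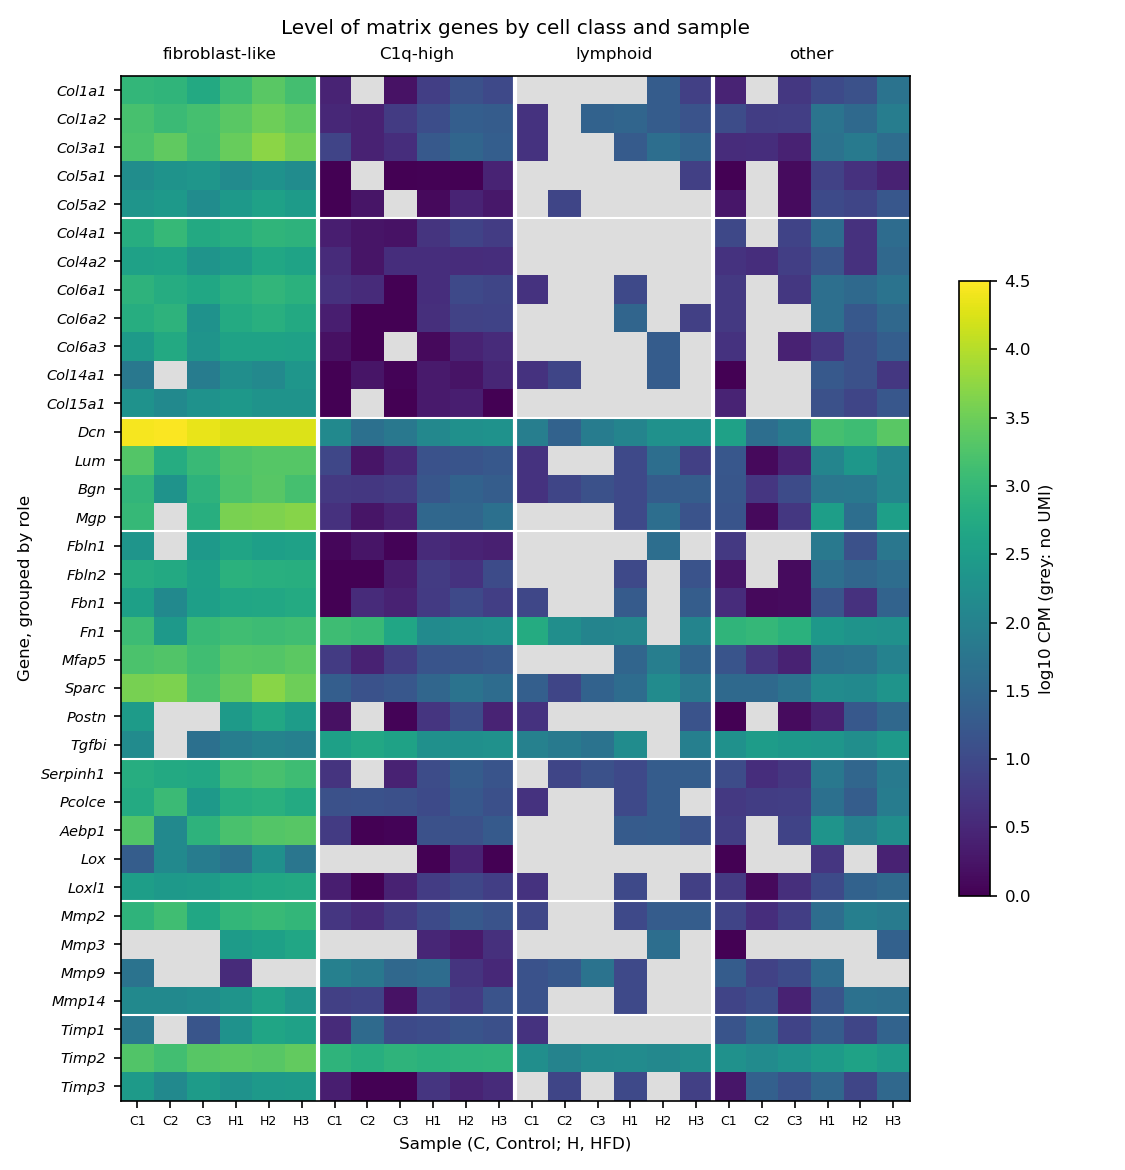
Levels of the 36 matrix genes (rows, grouped by role) as log10 CPM in 4 cell classes, with a column for each of the 3 Control (C) and 3 HFD (H) samples and grey where a class of a sample had no UMI. Most rows are brightest in the fibroblast-like columns, Dcn, Fn1, Tgfbi and Timp2 are also visible in the other classes, and Control 2 has only 2 fibroblast-like cells.

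**Figure D2:**
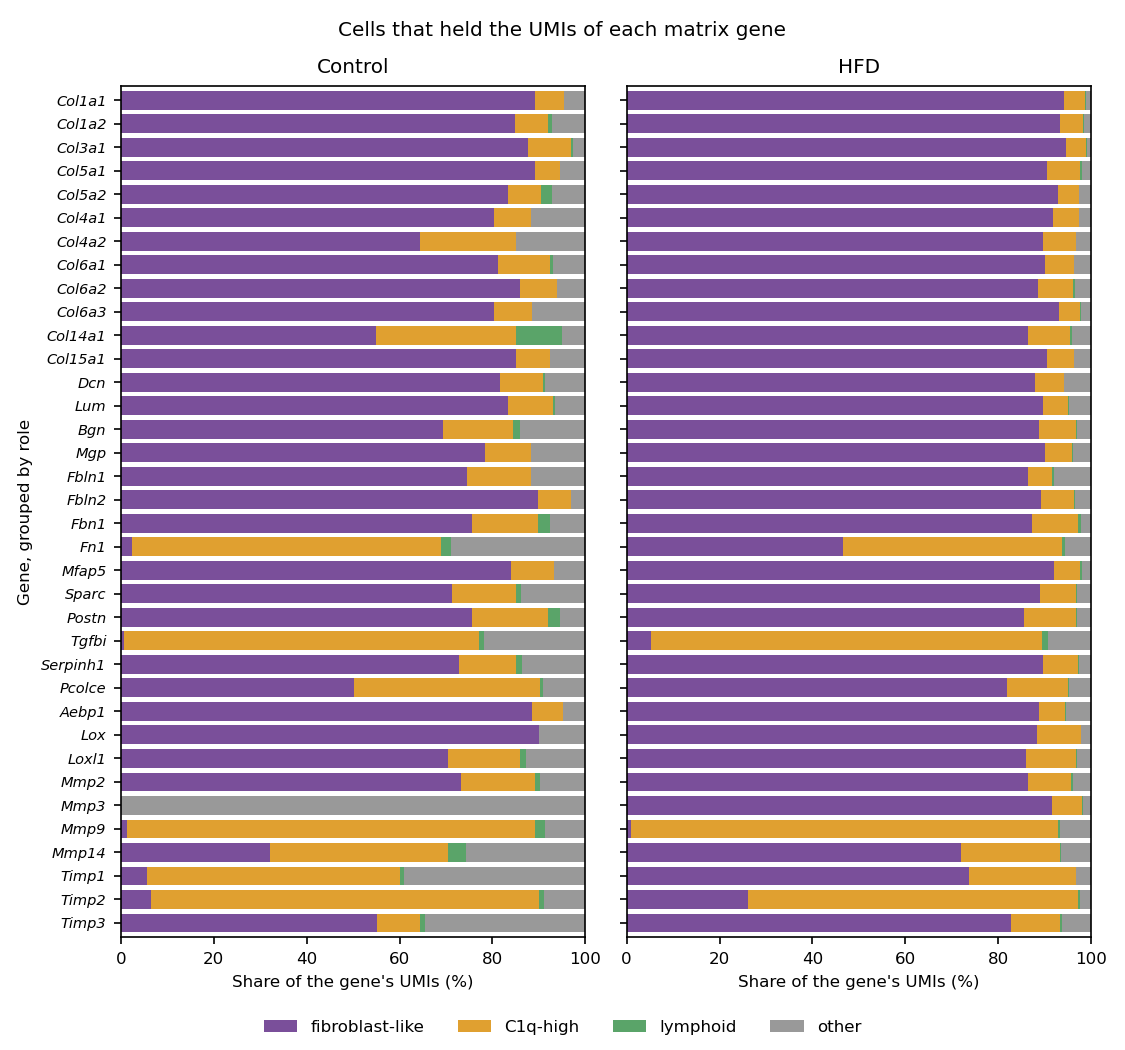
Share of each matrix gene's UMIs (x axis, percent) held by fibroblast-like, C1q-high, lymphoid and other cells, pooled over the 3 samples of each diet. Fibroblast-like cells hold more than 50% for 29 genes in Control and 32 in HFD, and C1q-high cells hold more than 50% for Fn1, Tgfbi, Mmp9, Timp1 and Timp2 in Control. Control Mmp3 is a single UMI.

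The first comparison asked how the level of each gene in all sorted cells together differed with diet. Sums of all kept cells were tested gene by gene with edgeR, and a gene was called at an adjusted p under 0.05. Of the 36 genes 33 rose and 2 fell, Fn1 and Tgfbi. Over all 10450 genes tested, 15.2% were called higher and 17.2% lower. Several of the 33, among them Mmp3, Lox, Col14a1, Postn and Mgp, fell short of the low-count filter in Control and needed HFD to pass. Their rises are in part fixed by it. With no filter on low counts all 35 calls stayed. The median log2 fold change was 2.51 over the 36 genes and -0.02 over all. The gelatinase gene Mmp9 had a log2 fold change of -1.78 ± 0.73, adjusted p = 0.091 and overlapped between diets. In such sums, fewer cells of a class and less RNA per cell cannot be told apart. The 36 genes together made up 0.372%, 0.241% and 0.266% of all UMIs in Control and 0.656%, 0.868% and 0.728% in HFD. Counting every deposited entry gave 32 rises and 2 falls, beside 12.6% and 13.5% of all genes. With fibroblast-like cells left out, an alternative added after seeing the data, 29 of the 36 were tested, and 19 rose and 2 fell, beside 14.0% and 16.5% of all genes. That form too lacks the cells with most Col1a2 and Col3a1 UMIs.

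The next comparisons asked the same within C1q-high cells and within fibroblast-like cells. In C1q-high sums 26 of the 36 genes passed the filter on low counts, 16 rose and 2 fell, beside 12.7% and 15.9% of all 9362 genes tested. Col1a2 and Col3a1 are among the 16, and the class rule took out the cells with most of their UMIs. Of the 24 others 14 rose and 2 fell. Among the 14, Col1a1, Col4a1, Col6a2, Fbln2, Fbn1 and Loxl1 passed the filter through their HFD samples alone, where they are high. Mgp, Lum, Serpinh1, Aebp1, Mfap5 and Mmp2 fell short of its limit in at least 1 Control sample and also needed HFD samples to pass. The rises of all these genes, also where given singly below, are thus in part fixed by the filter, and the count is a description. With no filter on low counts the 18 calls, Col1a2 and Col3a1 among them, all stayed. With every deposited entry 18 rose and 3 fell, beside 7.22% and 9.96% of all genes. The median log2 fold change was 1.42 over the 26 and 1.36 over the 24, against -0.02 over all genes. In fibroblast-like sums Control 2, with its 2 cells, was left out, so 17 Control cells of 2 samples were set against 195 HFD cells of 3 samples. Col1a2 and Col3a1 get no test there. Of the 33 other genes that passed the filter 5 rose (Mgp, Mmp3, Timp1, Bgn and Serpinh1) and 0 fell by edgeR, beside 0.336% and 0.504% of all 5362 genes. Mmp3, with 0 UMIs in Control, passed the filter through HFD alone, so it could only be called as a rise. Timp1 reached the limit of the filter in Control 1 but not in Control 3, so it too needed HFD samples to pass. At an unadjusted p under 0.05 the numbers were 17 and 1. No share of all genes at that limit stands beside them, so they are not read as a result about these genes. DESeq2 called 6 and 0, with 85 genes called over all. The median log2 fold change of the 33 was 0.52, against 0.03 over all genes. Without HFD 2 the number of rises became 3. Without Control 1 it became 15, but that fit has Control 3 as its only Control sample, takes its spread from the HFD samples alone and assumes that Control varies like them. With every deposited entry in the test, 0 of the 36 were called by edgeR, beside 0.116% and 0.174% of all genes. At an unadjusted p under 0.05 there were 8, again without a share of all genes beside them.

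**Figure D3:**
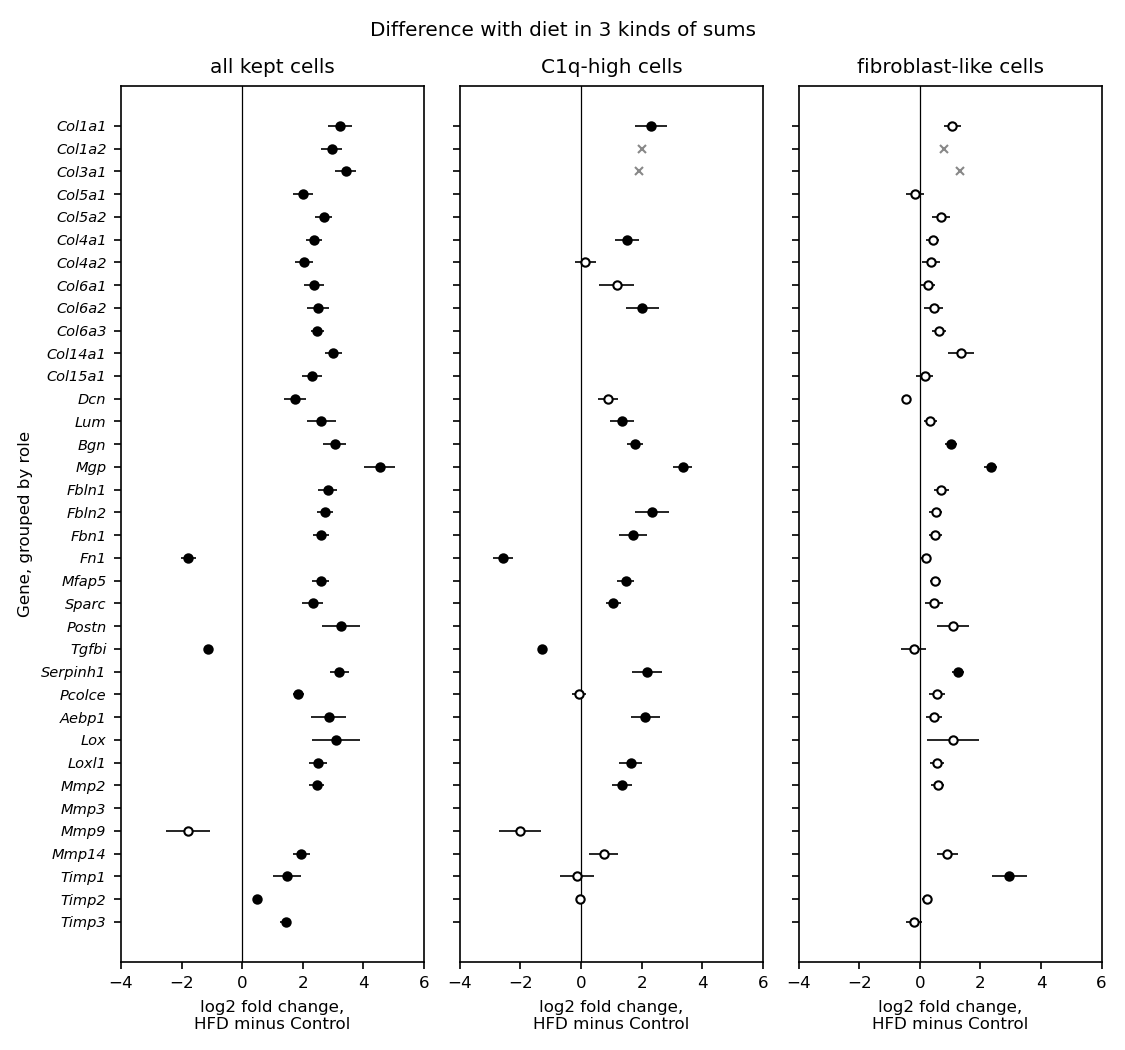
Log2 fold change with diet (x axis, HFD minus Control; bars are SE) of each matrix gene in sums of all kept cells, C1q-high cells and fibroblast-like cells. Filled points passed an adjusted p of 0.05, open points did not, crosses are Col1a2 and Col3a1 in the 2 classes cut by their UMIs, where they get no test, and genes that did not pass the low-count filter and Mmp3 are not drawn. Filled points lie to the right of 0 except Fn1 and Tgfbi in the first 2 panels.

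All 5 fibrillar collagen genes rose in the sum of all cells, with log2 fold changes of 1.99 to 3.42, beside 15.2% of all genes. Col3a1, the chain of type III collagen, stood at 47.8, 21.5 and 37.6 CPM in Control 1, 2 and 3 and 296, 640.4 and 362 CPM in HFD 1, 2 and 3. The lowest HFD sample was thus far above the highest Control sample, and HFD 2 was the highest of all. The log2 fold change was 3.42 ± 0.34, adjusted p = 0.00028. Col1a1 and Col1a2, the chains of type I collagen, stood at 25.8, 6.51 and 15.8 CPM in Control and 125, 263 and 149.8 CPM in HFD and at 43.1, 12.5 and 43.1 CPM in Control and 231, 385 and 257 CPM in HFD, also without overlap. Their log2 fold changes were 3.23 ± 0.40, adjusted p = 0.00064 and 2.95 ± 0.36, adjusted p = 0.00056. Col5a1 and Col5a2, chains of the type V collagen that starts fibrils, changed by 1.99 and 2.68.

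Whether the log2 fold changes of these genes in fibroblast-like cells differ from those in all cells was not tested. Within fibroblast-like cells Col3a1 stood at 1679, 2551 and 1425 CPM in Control and 2867, 5318 and 3497 CPM in HFD, and Col1a2 at 1542, 1172 and 1516 CPM in Control and 2248, 3172 and 2411 CPM in HFD, both higher in each HFD sample than in each Control sample. These are descriptions, since both genes drew the cells. Col1a1, which did not, stood at 950.2, 896 and 551 CPM in Control and 1230, 2187 and 1414 CPM in HFD and missed the threshold (1.08 ± 0.27, adjusted p = 0.079). Col5a1 (-0.17 ± 0.30, adjusted p = 0.91) and Col5a2 (0.70 ± 0.29, adjusted p = 0.4) were not called, and their diets overlapped.

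In C1q-high cells Col1a1 stood at 2.82, 0 and 1.64 CPM in Control and 6.86, 13.1 and 10.01 CPM in HFD (log2 fold change 2.31 ± 0.53, adjusted p = 0.011). Col1a2 was at 3.22, 2.71 and 6.00 CPM in Control and 11.6, 22.1 and 20.01 CPM in HFD, and Col3a1 at 8.45, 2.71 and 3.82 CPM in Control and 17.8, 29.7 and 22.0 CPM in HFD. Each HFD sample was above each Control sample for all 3 genes. Values of Col1a2 and Col3a1 are given with no test, because cells with 6 or more of their UMIs had been taken out of this class. In HFD the pooled level of Col1a1 in fibroblast-like cells was 165 times that in C1q-high cells. This too is a description, since Col1a1 varied from cell to cell with the 2 genes of the rule. In lymphoid cells of the same samples Col3a1 stood at 4.597, 0 and 0 CPM in Control and 19.4, 41.5 and 28.8 CPM in HFD.

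All 7 genes of basement membrane, type VI and other collagens rose in all cells by 2.05 to 3.01, beside 15.2% of all genes. Within fibroblast-like cells the log2 fold changes of these 7 were 0.16 to 1.37, and each missed the threshold. Type IV collagen is the sheet of basement membranes, and its chain Col4a1 stood in C1q-high cells at 2.42, 1.81 and 1.64 CPM in Control and 4.72, 7.95 and 6.39 CPM in HFD (1.51 ± 0.40, adjusted p = 0.019). Leaving out Control 2, Control 3, HFD 2 or HFD 3 ended this call (adjusted p = 0.055 to 0.062). Its partner Col4a2, transcribed from the adjacent promoter, stood at 3.62, 1.81 and 3.82 CPM in Control and 3.86, 3.80 and 3.89 CPM in HFD in the same cells and was not called (0.14 ± 0.35, adjusted p = 0.84). Whether the 2 genes differ was not tested. Col6a2, a chain of the beaded filaments of type VI collagen, stood at 2.42, 0.904 and 0.545 CPM in Control and 4.07, 7.60 and 8.06 CPM in HFD (2.02 ± 0.55, adjusted p = 0.022). It too was not called when any of those 4 samples was left out (adjusted p = 0.062 to 0.066). Col6a1 was not called in C1q-high cells (1.18 ± 0.57, adjusted p = 0.15). Col6a3, Col14a1 and Col15a1 did not pass the filter there and stood at no more than 3.61 CPM in any sample.

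All 4 genes of small proteoglycans and of matrix Gla protein rose in all cells by 1.74 to 4.53, beside 15.2% of all genes. Mgp, whose protein is a vitamin K dependent inhibitor of calcification, had the largest log2 fold change of the 36 genes in the sum of all cells apart from Mmp3. It stood at 32.3, 1.502 and 19.2 CPM in Control 1, 2 and 3 and 427, 514 and 535 CPM in HFD 1, 2 and 3 (4.53 ± 0.52, adjusted p = 0.00043). In fibroblast-like cells it was at 1035, 0 and 659 CPM in Control and 3914, 4222 and 4845 CPM in HFD, where the 0 of Control 2 rests on 2 cells. Without Control 2 the log2 fold change was 2.34 ± 0.21, adjusted p = 1.7e-05. With every deposited entry it was 0.80 (adjusted p = 0.29), and with a collagen limit of 3 UMIs 1.96 (adjusted p = 0.11).

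In C1q-high cells Mgp stood at 4.43, 1.81 and 2.73 CPM in Control and 31.9, 31.1 and 45.0 CPM in HFD (3.35 ± 0.31, adjusted p = 0.00018), with no overlap. Lymphoid cells of the same samples had 0, 0 and 0 CPM in Control and 9.70, 41.5 and 14.4 CPM in HFD. The 3 Control values rest on 0 UMIs, which allows up to 7.33 CPM over the group. The pooled HFD level of 17.2 CPM, itself from 5 UMIs, was at least 2.35-fold higher by counting error of the Control sum alone. At 3000 UMIs per cell no C1q-high cell had 5 or more Mgp UMIs, a limit chosen after seeing the data, while 54.1%, 53.8% and 59.1% of fibroblast-like cells in HFD 1, 2 and 3 did. Mgp did not pass the threshold between C1q-high and lymphoid cells (1.84 ± 0.72, adjusted p = 0.074).

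Dcn encodes decorin, which coats collagen fibrils, and was the gene of the 36 with most UMIs. In the sum of all cells it stood at 872, 259 and 599 CPM in Control and 1998, 2310 and 2099 CPM in HFD and rose (1.74 ± 0.35, adjusted p = 0.0054). In fibroblast-like cells it was at 27720, 29780 and 22290 CPM in Control and 18510, 18100 and 18120 CPM in HFD, lower in every HFD sample than in every Control sample, but it was not called (-0.44 ± 0.14, adjusted p = 0.21). In C1q-high cells it was at 136, 46.1 and 62.7 CPM in Control and 128, 179.7 and 194 CPM in HFD, with overlap, and also not called (0.89 ± 0.33, adjusted p = 0.073). The share of cells with a Dcn UMI was set beside that in lymphoid cells, which are not known to make decorin. At 3000 UMIs per cell Dcn was found in 24.9% of Control and 37.4% of HFD C1q-high cells (47.7% and 80.4% at full depth), and in 17.5% and 46.2% of lymphoid cells (33.3% and 63.3% at full depth). Median depths were 7085 and 12051.5 UMIs in C1q-high and 4603 and 6758.5 UMIs in lymphoid cells.

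Bgn, the gene of biglycan, rose in all 3 kinds of sums. It stood at 30.7, 7.01 and 26.9 CPM in Control and 177, 276 and 171 CPM in HFD in all cells (3.05 ± 0.37, adjusted p = 0.00055) and at 919, 207 and 812 CPM in Control and 1650, 2183 and 1484 CPM in HFD in fibroblast-like cells (1.04 ± 0.20, adjusted p = 0.021). The fibroblast-like call was lost without HFD 1 or HFD 2 (adjusted p = 0.093 and 0.11), with every deposited entry (0.57, adjusted p = 0.21) and with a collagen limit of 3 UMIs (0.74, adjusted p = 0.57). C1q-high cells had 5.63, 5.42 and 6.00 CPM in Control and 16.3, 25.6 and 21.4 CPM in HFD (1.77 ± 0.26, adjusted p = 0.0015). Lum, the gene of lumican, stood at 58.6, 6.01 and 29.9 CPM in Control and 192, 264 and 223 CPM in HFD in all cells (2.60 ± 0.48, adjusted p = 0.0038) and at 1953, 620.5 and 1118 CPM in Control and 1793, 2049 and 2049 CPM in HFD in fibroblast-like cells, where it was not called (0.35 ± 0.21, adjusted p = 0.59). In C1q-high cells Lum was at 9.26, 1.81 and 3.27 CPM in Control and 13.5, 14.9 and 17.5 CPM in HFD (1.36 ± 0.40, adjusted p = 0.029). This call was lost without any 1 sample other than Control 1 (adjusted p = 0.060 to 0.080).

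Of the 8 glycoprotein genes of fibres and adhesion 6 rose and 2 fell in all cells, beside 15.2% and 17.2% of all genes. Sparc, whose protein binds collagen on its way out of the cell, stood at 116, 50.6 and 64.1 CPM in Control and 303, 637 and 363 CPM in HFD (2.33 ± 0.35, adjusted p = 0.0014). In fibroblast-like cells it was at 3706, 4068 and 1608 CPM in Control and 2761, 5088 and 3214 CPM in HFD, with overlap (0.46 ± 0.29, adjusted p = 0.61), and in C1q-high cells at 22.1, 13.6 and 16.4 CPM in Control and 30.6, 51.5 and 39.7 CPM in HFD (1.06 ± 0.24, adjusted p = 0.011). HFD 2 was the highest sample for Sparc in each of these classes, as it was for Col3a1. Mfap5, a protein of elastic microfibrils, stood at 49.3, 17.0 and 36.5 CPM in Control and 215, 243 and 251 CPM in HFD (2.59 ± 0.27, adjusted p = 0.00033). Fibroblast-like cells had 1689, 1861 and 1302 CPM in Control and 2060, 1972 and 2341 CPM in HFD (0.51 ± 0.18, adjusted p = 0.26) and C1q-high cells 6.04, 2.71 and 6.54 CPM in Control and 15.00, 15.2 and 18.3 CPM in HFD (1.47 ± 0.28, adjusted p = 0.0044).

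Fbln2 encodes fibulin-2 and Fbn1 fibrillin-1, both of elastic fibre networks. In C1q-high cells Fbln2 stood at 0.805, 0.904 and 2.18 CPM in Control and 6.00, 4.49 and 10.6 CPM in HFD (2.33 ± 0.56, adjusted p = 0.013) and Fbn1 at 0.805, 3.62 and 2.73 CPM in Control and 5.79, 9.67 and 6.95 CPM in HFD (1.72 ± 0.46, adjusted p = 0.022). The groups did not overlap for either gene, but Fbln2 was not called without Control 1 (adjusted p = 0.061), nor Fbn1 without Control 1 or HFD 2 (adjusted p = 0.10 and 0.069). Neither was called within fibroblast-like cells (0.52 ± 0.22, adjusted p = 0.41, and 0.51 ± 0.22, adjusted p = 0.42). Fbln1 and Postn, the gene of periostin, rose in all cells by 2.82 and 3.26 and did not pass the filter in C1q-high cells.

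All 5 genes that fold, trim and crosslink collagen rose in the sum of all cells, by 1.85 to 3.21, beside 15.2% of all genes. Serpinh1, the collagen chaperone of the endoplasmic reticulum, stood in fibroblast-like cells at 644, 552 and 506 CPM in Control and 1319, 1540 and 1280 CPM in HFD. Its HFD samples were all above its Control samples, and it rose there (1.26 ± 0.20, adjusted p = 0.0046), as in all cells (3.21 ± 0.30, adjusted p = 0.00023). The fibroblast-like call was lost with every deposited entry (0.36, adjusted p = 0.49) and with a collagen limit of 3 UMIs (0.97, adjusted p = 0.48). C1q-high cells had 4.83, 0 and 2.73 CPM in Control and 10.9, 20.04 and 14.7 CPM in HFD (2.18 ± 0.49, adjusted p = 0.01). Aebp1, a secreted collagen-binding protein, varied widely among Control fibroblast-like cells at 1932, 138 and 812 CPM in Control and 1639, 2010 and 2178 CPM in HFD and was not called there (0.48 ± 0.26, adjusted p = 0.55). In C1q-high cells it stood at 6.04, 0.904 and 1.09 CPM in Control and 13.3, 13.1 and 18.9 CPM in HFD (2.12 ± 0.48, adjusted p = 0.01).

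The lysyl oxidase gene Loxl1 was at 2.42, 0.904 and 2.73 CPM in Control and 6.43, 8.98 and 6.95 CPM in HFD in C1q-high cells (1.64 ± 0.38, adjusted p = 0.011) and was not called in fibroblast-like cells (0.57 ± 0.24, adjusted p = 0.39). Lox, the founding member of that family, had 10 UMIs in Control and 146 in HFD over all cells (3.10 ± 0.78, adjusted p = 0.016), and the call was lost without Control 1 (adjusted p = 0.062). Lox needed HFD samples to pass the low-count filter in these sums, so its rise is in part fixed by it. Pcolce, which speeds the trimming of procollagen, rose in all cells (1.85 ± 0.18, adjusted p = 0.00027) but not by the test in C1q-high cells (-0.06 ± 0.24, adjusted p = 0.88), where its samples overlapped.

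Of the 4 metalloproteinase genes 3 rose in the sum of all cells, beside 15.2% of all genes. Mmp3 encodes stromelysin 1, which cuts many matrix proteins and activates other proteases, and had 1 UMI in all Control cells against 554 in HFD. In fibroblast-like cells it stood at 0, 0 and 0 CPM in Control and 289.8, 354 and 457 CPM in HFD. With 0 UMIs in Control, which allows up to 17.2 CPM over the group, the pooled HFD level of 361 CPM was at least 21-fold higher by counting error alone. That floor rests on 19 Control cells and leaves out the spread between cells and samples. In HFD fibroblast-like cells at 3000 UMIs the variance of Mmp3 was 8.31 times its mean. Mmp3 was called in fibroblast-like sums (edgeR, adjusted p = 0.00018). There and in the sum of all cells it passed the low-count filter through HFD samples alone, so a call could only be a rise. With every deposited entry the log2 fold change of Mmp3 in fibroblast-like sums was 2.92, a smaller change than 21-fold, and its adjusted p 0.059. The messages were concentrated in few cells, since the 20 HFD fibroblast-like cells with most Mmp3, of 192 at 3000 UMIs, held 76.1% of its UMIs.

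Mmp2, the gelatinase A gene, stood at 26.6, 13.0 and 17.3 CPM in Control and 103, 147 and 111 CPM in HFD in all cells (2.45 ± 0.23, adjusted p = 0.00023), with no overlap. In fibroblast-like cells its diets overlapped and it was not called (0.59 ± 0.22, adjusted p = 0.33), while in C1q-high cells it was at 5.23, 3.62 and 6.00 CPM in Control and 10.1, 18.3 and 14.4 CPM in HFD (1.35 ± 0.32, adjusted p = 0.013). Mmp14, the membrane-bound activator of that gelatinase, rose in all cells (1.95 ± 0.28, adjusted p = 0.0013) and was not called in C1q-high (0.75 ± 0.48, adjusted p = 0.27) or fibroblast-like cells (0.91 ± 0.35, adjusted p = 0.35).

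The fourth comparison asked which of the genes stood higher in C1q-high cells than in lymphoid cells of the same samples, a class not known for making matrix, with the sample as a block. HFD 2, with 4 lymphoid cells, was left out. The lymphoid class also carried markers of other cells. Without Fn1 the monocyte list summed there to 1562 and 706 CPM in pooled Control and HFD, against 377 and 147 CPM in C1q-high cells. The conventional dendritic list summed to 538 and 320 CPM, against 211 and 61.4 CPM. Whether this class gives a clean free RNA level was not tested. Of 13 genes that passed the filter 4 were higher, Timp2, Tgfbi, Mmp9 and Fn1, and 0 were lower by edgeR, beside 13.0% and 8.99% of all 7220 genes. At an unadjusted p under 0.05 the numbers were 5 and 0, and DESeq2 called 3 and 0. With every deposited entry 6 of 28 tested were higher and 0 lower, beside 17.7% and 9.56% of all genes, and 8 had an unadjusted p under 0.05. No share of all genes stands beside the unadjusted and DESeq2 counts, so they are not read as a result about the matrix genes. The 9 others included Col1a2, Col3a1, Dcn, Bgn, Mgp, Sparc and Mfap5. A p above the threshold does not show that their levels were equal in the 2 classes. With all other cells outside the fibroblast-like class in place of lymphoid cells, 2 were higher and 20 lower, beside 14.5% and 15.0% of all genes. The fibroblast reporters summed to 405 to 882 CPM in the other cells of HFD and to 100 to 118 CPM in C1q-high cells.

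Timp2, an inhibitor that also helps Mmp14 activate gelatinase A, stood in C1q-high cells at 849.5, 671 and 841 CPM in Control 1, 2 and 3 and 764, 823 and 841 CPM in HFD 1, 2 and 3. Lymphoid cells of the same samples had 170.1, 104 and 144 CPM in Control and 145, 125 and 158 CPM in HFD, below every C1q-high value. The log2 difference between the classes was 2.44 ± 0.18, adjusted p = 3.4e-09. Between diets Timp2 in C1q-high cells overlapped and was not called (-0.04 ± 0.12, adjusted p = 0.83). In the sum of all cells it rose (0.49 ± 0.15, adjusted p = 0.031), but not without HFD 1, 2 or 3 (adjusted p = 0.065 to 0.088) or with every deposited entry (adjusted p = 0.067). Fibroblast-like cells had 1879, 1379 and 2145 CPM in Control and 2339, 2102 and 2572 CPM in HFD (0.24 ± 0.16, adjusted p = 0.64).

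Fn1, the gene of fibronectin, fell in C1q-high cells and was not called in fibroblast-like cells. C1q-high cells had 1258, 1085 and 452 CPM in Control 1, 2 and 3 and 144, 164 and 193 CPM in HFD 1, 2 and 3. Every HFD sample was below every Control sample, and Control 3 lay below the other 2 Control samples. The log2 fold change was -2.57 ± 0.33, adjusted p = 0.00079. In fibroblast-like cells Fn1 was at 1193, 276 and 1072 CPM in Control and 1317, 1205 and 1330 CPM in HFD (0.19 ± 0.17, adjusted p = 0.75), and in the sum of all cells at 1110, 993 and 536 CPM in Control and 264, 285 and 300.3 CPM in HFD (-1.79 ± 0.25, adjusted p = 0.00098). Fn1 was higher in C1q-high than in lymphoid cells (1.40 ± 0.26, adjusted p = 0.00037), but not than in all other cells (-0.075, adjusted p = 0.77). Few cells carried many copies. At 3000 UMIs per cell, 21.1%, 18.8% and 10.8% of C1q-high cells in Control 1, 2 and 3 had 5 or more Fn1 UMIs, against 1.87%, 3.03% and 2.45% in HFD 1, 2 and 3. Control lymphoid cells with 5 or more were 2 of 15, 0 of 12 and 0 of 13, at a median depth of 4603 UMIs against 7085 UMIs.

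Tgfbi encodes a matrix protein induced by TGF-beta that binds collagens and integrins. C1q-high cells had 366, 507 and 392 CPM in Control 1, 2 and 3 and 184, 176 and 188 CPM in HFD 1, 2 and 3. The groups did not overlap, and the HFD samples lay close together (-1.28 ± 0.12, adjusted p = 0.00021). In the sum of all cells Tgfbi stood at 295, 404 and 336 CPM in Control and 177, 164 and 182 CPM in HFD (-1.12 ± 0.12, adjusted p = 0.00033). It was higher in C1q-high than in lymphoid cells (1.70 ± 0.29, adjusted p = 0.00018) and was not called against all other cells (0.40, adjusted p = 0.083). In fibroblast-like cells it stood at 148, 0 and 46.0 CPM in Control and 79.7, 104 and 90.5 CPM in HFD (-0.20 ± 0.42, adjusted p = 0.93).

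Summed markers of monocytes and of conventional dendritic cells were lower in every HFD sample than in every Control sample of the C1q-high cells, as Fn1 and Tgfbi were. The monocyte list of 6 genes, all with UMIs there, summed to 738 to 1717 CPM in Control and 288 to 358 CPM in HFD. Without Fn1, which is on that list, it summed to 287 to 632 CPM and 129 to 165 CPM. The conventional dendritic cell list of 7 genes summed to 191 to 229 CPM in Control and 53.2 to 75.6 CPM in HFD. The neutrophil list of 6 genes overlapped between diets, at 43.6 to 335.5 CPM and 32.8 to 99.9 CPM. Without Mmp9, which is on it, that list stood at 132, 271 and 9.81 CPM in Control and 61.5, 41.1 and 29.5 CPM in HFD, so Control 3 lay below every HFD sample. The endothelial list of 6 genes moved the other way, as the collagen genes did, from 215.7 to 682 CPM in Control to 846 to 897 CPM in HFD. Fabp4 made up 374 and 835.5 CPM of the pooled sum, and the defining gene Cdh5 0.369 and 1.34 CPM. The part of these cells in the results was not tested.

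Mmp9, the gelatinase B gene of neutrophils and macrophages, stood in C1q-high cells at 92.6, 64.2 and 33.8 CPM in Control and 38.4, 4.84 and 3.33 CPM in HFD. HFD 1 lay within the Control range, and Mmp9 was not called between diets (-2.02 ± 0.69, adjusted p = 0.053). It was higher than in lymphoid cells (1.64 ± 0.48, adjusted p = 0.017), but not without Control 1 (adjusted p = 0.26) or by DESeq2 (adjusted p = 0.15). Timp1, a broad metalloproteinase inhibitor, stood in fibroblast-like cells at 63.4, 0 and 15.3 CPM in Control and 194, 449 and 378 CPM in HFD. It rose there (2.96 ± 0.58, adjusted p = 0.023), but not without HFD 2 (adjusted p = 0.11) or with a collagen limit of 3 UMIs (adjusted p = 0.27), and with every deposited entry its log2 fold change was -0.13. In these sums Timp1 needed HFD samples to pass the low-count filter, so its rise is in part fixed by it. Timp1 in C1q-high cells was at 3.62, 35.3 and 10.4 CPM in Control and 11.8, 14.9 and 12.5 CPM in HFD, with overlap and with Control 2 as the highest sample (-0.14 ± 0.56, adjusted p = 0.88). In the sum of all cells the Timp1 call (1.47 ± 0.47, adjusted p = 0.041) ended when Control 1 or 3, or HFD 2 or 3, was left out (adjusted p = 0.091 to 0.13). Timp3, which binds to the matrix itself, rose in all cells (1.44 ± 0.18, adjusted p = 0.00061) and not by the test in fibroblast-like cells (-0.20 ± 0.26, adjusted p = 0.88).

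**Figure D4:**
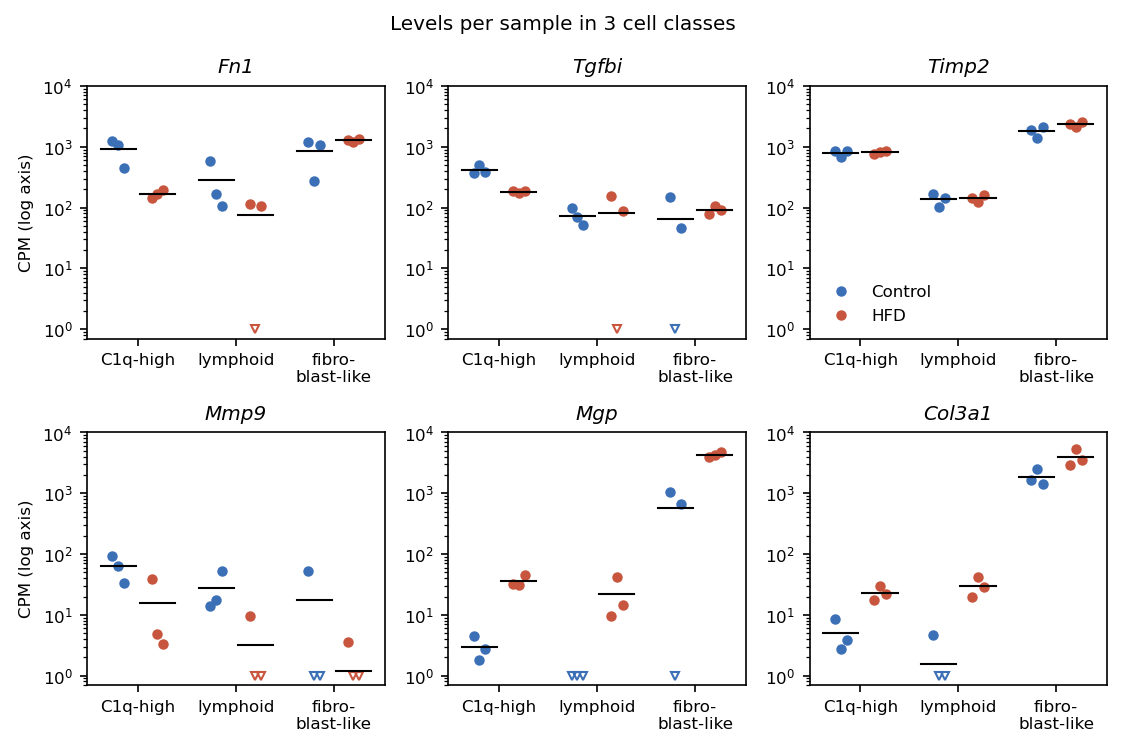
Levels in CPM (log axis) of 6 matrix genes in C1q-high, lymphoid and fibroblast-like cells, with a point for each Control and HFD sample, bars at the means, and open triangles for samples with no UMI. Fn1 and Tgfbi are lower in every HFD than in every Control sample of the C1q-high cells, Timp2 overlaps between diets there and lies above its lymphoid values, and Mgp and Col3a1 are higher in HFD in all 3 classes.

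The UMIs of each gene in C1q-high cells were set against an expectation for free RNA, whose source was not measured. The expectation was the UMIs a gene would have if they came from RNA with the composition of fibroblast-like cells, scaled by the 20 reporter genes, none of which is among the 36. Reporters stood in C1q-high cells at 64.0, 43.4 and 48.0 CPM in Control 1, 2 and 3 and at 100, 116 and 118 CPM in HFD 1, 2 and 3, so they too were higher in each HFD sample. Of the 20 reporters 9 passed the filter in C1q-high sums, and 6 of them rose. In lymphoid cells reporters stood at 26.0 to 52.5 CPM in Control and 48.5 to 166 CPM in HFD.

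Observed divided by expected UMIs had a median of 1.08 over the 36 genes in HFD and 0.705 in Control. In HFD 29 genes, and in Control 19, lay within 2-fold of the expectation. Among those called higher in C1q-high cells, the HFD ratio was 0.656 for Col1a1, 0.941 for Mgp, 1.26 for Bgn, 1.16 for Serpinh1 and 1.67 for Loxl1. Control ratios of these genes were 0.258, 0.176, 0.718, 0.506 and 1.03. Col3a1 and Col1a2 are left out of these examples, because the class rule raises their expectation and caps their count, which sets a ratio below 1 by construction. Genes that vary with them, such as Col1a1, may share this in part. The medians and the numbers within 2-fold do include both genes, which at 0.642 and 0.712 in HFD count among the 29. With the composition taken from fibroblast-like cells of the same diet, the Control median was 1.04, and Mgp stood at 0.800 in Control and 0.864 in HFD. Counts behind these ratios are small in Control, for example 10 UMIs of Col1a1 and 18 of Mgp.

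Far above the expectation stood the genes named in the fourth comparison. In HFD the ratio was 206 for Tgfbi, 35.9 for Timp2, 13.4 for Fn1 and 425 for Mmp9, and in Control 919, 73.2, 156 and 3137. The Mmp9 expectation rests on its few UMIs in fibroblast-like cells. Timp1 stood at 4.46 in HFD and 8.70 in Control, Mmp14 at 4.06 and 4.57, and Pcolce at 2.12 and 4.32. Of the 360 C1q-high cells with at least 1 UMI of Col3a1 or Col1a2, all were left out in an alternative added after seeing the data. It tested 18 of the 36 genes, of which 9 rose and 3 fell, beside 9.92% and 14.1% of all genes. The cells left were 224, 138 and 206 of 251, 144 and 221 in Control 1, 2 and 3. In HFD 1, 2 and 3 they were 221, 105 and 144 of 325, 205 and 252. The loss was thus unequal between the diets. Deeper cells can more often hold such a UMI, and HFD C1q-high cells were deeper (medians 12051.5 against 7085 UMIs). With each cell thinned to 3000 UMIs, Col3a1 was found in 2.83% of Control and 5.76% of HFD C1q-high cells. Col1a2 was found in 0.943% and 4.71% of the same cells. The part of depth in the unequal loss was not tested.

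**Figure D5:**
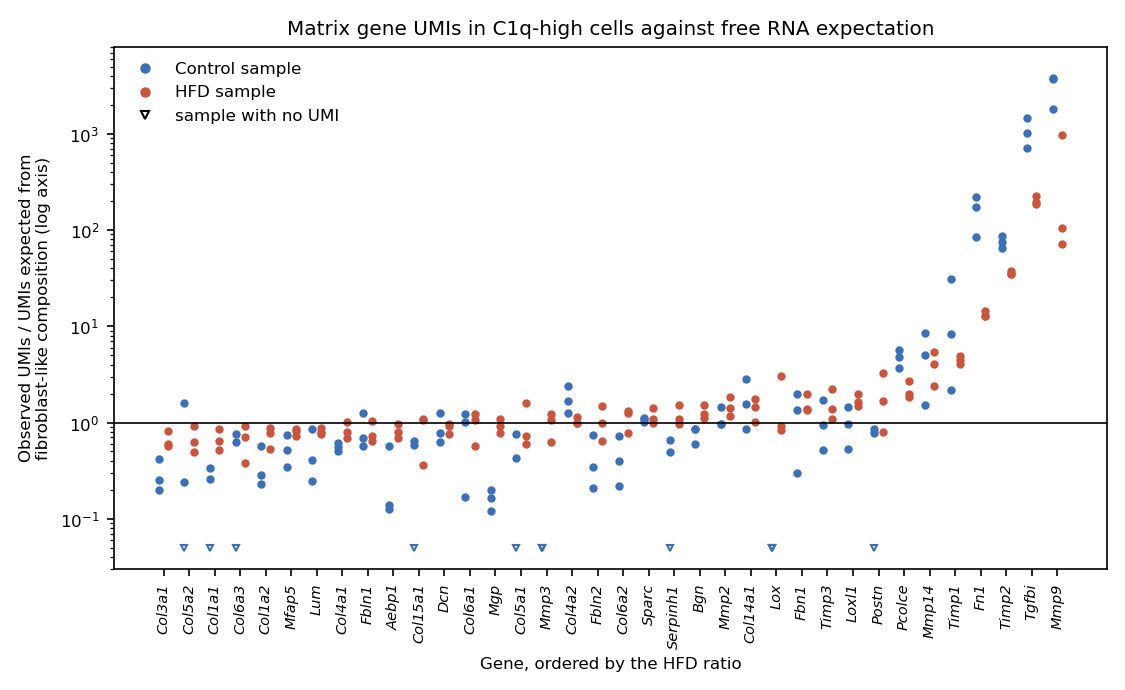
UMIs observed in C1q-high cells divided by those expected from RNA of fibroblast-like composition (y axis, log scale), a point for each Control and HFD sample, genes ordered by their HFD ratio. Points of most genes lie near the line at 1, those of Fn1, Timp2, Tgfbi and Mmp9 lie above 10, and open triangles mark samples with no UMI at a fixed height. Col3a1 and Col1a2 are drawn, although the class rule sets their ratios below 1.

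An interaction test, added after seeing the data, asked whether the diet difference in C1q-high cells was unlike that in fibroblast-like cells. It used the 5 samples with at least 5 fibroblast-like cells. With so few sums, edgeR takes the spread of a gene largely from all genes. A very small p here therefore does not measure how far the samples spread. Fn1 (a difference of -2.70 between the log2 fold changes, adjusted p = 3.5e-30) and Timp1 (-2.12, adjusted p = 0.030) were lower in C1q-high cells by this measure. Dcn (1.00, adjusted p = 6.7e-07) and Aebp1 (1.29, adjusted p = 0.030) were higher. In C1q-high cells the observed over expected ratio was 1.01 in Control and 0.872 in HFD for Dcn, and 0.371 and 0.831 for Aebp1. Ratios of Fn1 and Timp1 are given above. The part of free RNA in these differences was not tested. Over all 9939 genes 0.684% were higher and 1.65% lower. Without Control 3 the calls of Dcn, Timp1 and Aebp1 were lost (adjusted p = 0.078, 0.76 and 0.23), in a fit that has Control 1 as its only Control sample.

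Fibroblast-like cells were not alike in their matrix genes. In 192 HFD cells thinned to 3000 UMIs, the type I and type III collagen genes went together, with Spearman's rho of 0.727 for Col1a1 and Col3a1, 0.696 for Col1a2 and Col3a1 and 0.656 for Col1a1 and Col1a2. Sparc (0.659) and Col4a1 (0.643) followed Col3a1. Dcn had a rho of -0.292 with Col3a1, -0.294 with Col4a1 and -0.323 with Fbn1, but 0.0208 with Sparc, and Mfap5 had -0.343 with Aebp1. Each of these pairs other than Dcn and Sparc had the same sign in HFD 1, 2 and 3. They are descriptions with no test, the cells share libraries, all counts of a cell share 1 total, and Col3a1 and Col1a2 drew the cells. Of the 36 genes Mgp had the largest variance divided by mean. Its variance over these cells was 22.8 times its mean, against 14.9 for Dcn, 14.1 for Col3a1 and 2.32 for Timp2. The 20 cells with most Mgp held 42.3% of its UMIs. By this share other genes were more uneven, such as Mmp3 (76.1%) and Tgfbi (72.5%).

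Other matrix genes were read from 9 lists with 141 genes, none of them among the 36. Of these, 7 (Dpt, Efemp1, Gpc3, Mfap4, Pdgfra, Pdgfrb and Smoc2) are also among the 20 fibroblast reporters, so the lists and the reporters are not independent. In the sum of all cells 108 were tested, and 61 rose and 9 fell, beside 15.2% and 17.2% of all genes, with a median log2 fold change of 1.25 against -0.02 over all genes. Further collagens rose in 3 of 4 tested, Col5a3 by 3.26, Col18a1 by 2.51 and Col4a5 by 1.92. Collagen processing genes rose in 9 of 14, led by the prolyl isomerase Fkbp10 (2.92), the procollagen C-proteinase Bmp1 (2.59) and the lysyl hydroxylase Plod2 (2.28). Of 10 other proteoglycan and hyaluronan genes 5 rose and 2 fell, with asporin (Aspn, 4.52), the hyaluronan synthase Has1 (2.26) and osteoglycin (Ogn, 2.05) as the largest changes. Basement membrane genes rose in 5 of 7, among them the laminin chain Lama4 (2.69) and nidogen-1 (Nid1, 1.81). Of the microfibril genes Mfap4 (3.90) and Mfap2 (3.89) rose most.

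In fibroblast-like cells 102 of these genes were tested, and 1 rose and 2 fell, beside 0.336% and 0.504% of all genes. The rise was that of the collagen protease Ctsk (1.47), and Ltbp4, which stores latent TGF-beta, was among the falls (-1.38). The median log2 fold change was 0.13, against 0.03 over all genes.

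C1q-high cells tested 63 of the 141 genes, and 16 rose and 12 fell, beside 12.7% and 15.9% of all genes, with a median of 0.04 against -0.02 over all genes. Rises included the protease genes Adamts1 (3.02) and Ctsk (2.87), the phosphoprotein gene Spp1 (2.77), fibulin-5 (Fbln5, 2.38) and, among matrix receptors, Itgb5 (1.88) and the collagen receptor Lair1 (1.24). Falls included thrombospondin-1 (Thbs1, -3.29), nidogen-2 (Nid2, -2.64), Ltbp1 (-2.27), Emilin2 (-1.501), the collagen uptake receptor Mrc1 (-1.46) and the granule proteoglycan serglycin (Srgn, -1.14). Of the TGF-beta and PDGF genes Tgfbr1 (1.34) and Pdgfb (1.15) rose and Smad3 fell (-1.43). Of these lists' genes, 26 of 44 tested stood higher in C1q-high than in lymphoid cells and 0 lower, beside 13.0% and 8.99% of all genes. Among the 26 were Ctsk (3.27), Thbs1 (3.96), Mrc1 (2.62) and Lair1 (2.71).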

How the data were processed

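The authors deposited, for each of the 6 samples, a single-cell matrix of UMI counts per gene and barcode, whole numbers with no normalization. Per the submitters' processing notes, the tools were Cell Ranger and Seurat 2.4, and the genome build was mm9. The 36 genes and all lists were chosen with earlier results of these data known.

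Entries with at least 200 genes and at most 10% mitochondrial UMIs were kept, and a barcode found in several samples was kept where its UMI total is highest. Doublets were not called: 5 fibroblast-like cells also passed the C1q limit. Counts were summed per sample and class and tested with edgeR 4.0.16 (quasi-likelihood, TMM scaling, filterByExpr; R 4.3.3) with Benjamini-Hochberg adjustment over all genes, and a ± beside a log2 fold change is its SE. A class of a sample needed at least 5 cells. DESeq2 1.42.0, other limits, other treatment of shared barcodes and leaving out each sample were tried as alternatives. Shares of cells with a UMI were compared after thinning each cell to 3000 UMIs, leaving out shallower cells. The genes named were the called ones, those with the highest fibroblast-like levels, and for each further list the 3 with the largest called changes. The interaction test, the sums without fibroblast-like cells, the C1q-high sums without collagen UMIs and the limit of 5 UMIs were chosen after seeing the data. Scripts were tested on simulated data. Floors and intervals cover counting error only. A result for 1 listed gene is not reported here.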

Additional observations from a re-analysis of the deposited data

Results flagged for a closer look

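For 4 of the genes the diet difference in C1q-high cells was unlike that in fibroblast-like cells by an interaction test in edgeR. The value is the log2 fold change with diet in C1q-high cells minus that in fibroblast-like cells. Fn1 had -2.70 (adjusted p = 3.5e-30) and Timp1 -2.12 (adjusted p = 0.030). Dcn had 1.00 (adjusted p = 6.7e-07) and Aebp1 1.29 (adjusted p = 0.030). UMIs of these 2 in C1q-high cells were 1.01 and 0.371 times the free RNA expectation in Control and 0.872 and 0.831 times in HFD. The part of free RNA in their differences was not tested. Leaving out a Control sample leaves 1 in the fit, whose spread then comes from the HFD samples. Fn1 was called without any 1 of the HFD samples, and in those thinner fits too. Dcn was not called without Control 3 (0.60, adjusted p = 0.078). The Timp1 call ended when Control 3 (adjusted p = 0.76), HFD 2 (adjusted p = 0.14) or HFD 3 (adjusted p = 0.14) was left out. That of Aebp1 ended with Control 1 (adjusted p = 0.25), Control 3 (adjusted p = 0.23), HFD 1 (adjusted p = 0.053) or HFD 3 (adjusted p = 0.12) left out.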

How the results depend on the processing

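In the sum of all cells 3389 genes were called, 1940 with barcodes of exactly 1 sample and 2233 to 3333 when 1 sample was left out (2233 without HFD 1). Matrix genes called higher numbered 33, 31 to 33 with 1 sample left out, and 19 without fibroblast-like cells, where Timp1 turned to -0.28. In C1q-high cells 2679 genes were called, 1706 with every deposited entry, 1122 with barcodes of exactly 1 sample and 1490 to 2841 with 1 sample left out (1490 without HFD 1). There 16 matrix genes were higher, but 1 with barcodes of exactly 1 sample, where 7 were tested, and 9 in cells with no Col3a1 or Col1a2 UMI.

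In fibroblast-like cells 45 genes were called, 85 by DESeq2, 178 with no filter on low counts, 10 with every deposited entry, 8 with a collagen limit of 3 UMIs and 23 to 114 with 1 sample left out (112 without Control 1, 114 without Control 3, 26 without HFD 1, 23 without HFD 2). There 5 matrix genes were higher, but 13 with no filter, 0 with every deposited entry, where Timp1 turned to -0.13, 1 with the limit of 3 UMIs, and 3 to 15 with 1 sample left out. Leaving out Control 1 or 3 leaves a lone Control sample, assumed to vary like HFD. Matrix genes called lower were 0 to 1. Sums of these cells from barcodes of exactly 1 sample were not run.

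Between C1q-high and lymphoid cells 1584 genes were called, 2755 with every deposited entry, 1029 with barcodes of exactly 1 sample and 2586 with all other cells in place of lymphoid cells. With all other cells 2 matrix genes were higher and 20 lower, and Fn1 turned to -0.075. The median ratio to free RNA was 1.04 in Control with the same diet as source, and 1.24 in HFD with Dcn as the only reporter. The causes of these differences were not tested.

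With replicate number as a block, 71 genes and 6 matrix genes were called in fibroblast-like cells, 32 matrix genes rose and 3 fell in all cells, and 13 rose and 3 fell in C1q-high cells. For all cells and C1q-high cells no share of all genes under the block is given beside these counts. Same-numbered samples did not vary together (r of -0.157, -0.0689 and -0.121 in all cells). The 17 Control fibroblast-like cells behind the tests limit what they can show.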
